A study of Drosophila melanogaster with 12 samples.

Results

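The transcripts described here are those of the eye pigment transporter genes bw (brown), w (white) and st (scarlet) in heads of adult cn bw flies of Drosophila melanogaster. All probe sets of the array annotated to one of these genes alone were taken, which gave 3 of 13966 probe sets other than controls: 2 for bw (151510_s_at and 142279_at) and 1 for st (153393_at), or 2 of the 10844 genes that had a probe set of their own. No probe set carried w as its only gene in the annotation used here, and w was not analysed here. The genes were chosen from earlier results on these arrays, in which the 24-h profile of bw was already known. Their 24-h profiles are therefore given as a description with no test, and only the difference between days was tested for them. For bw that test is not free of the choice either, since a strong 24-h profile leaves little variance for a difference between days.

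White, Brown and Scarlet are ABC transporters of the G subfamily, each of which has to pair with a second subunit to form a working pump in the membrane of the pigment granule. White with Brown carries precursors of the red pteridine pigments (drosopterins), and White with Scarlet carries the tryptophan-derived precursor of the brown ommochromes. In the compound eye these granules lie in pigment cells and in photoreceptors. The strain itself carries mutations in bw and in cn (cinnabar), the gene of kynurenine 3-monooxygenase, an enzyme of ommochrome synthesis, and such flies have white eyes. The bw transcript measured here is therefore that of a mutant allele, which the sources used here do not describe further.

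Flies were reared in darkness at 25 °C until early pupal stages and then put through a daily thermocycle of 12 h at 18 °C and 12 h at 25 °C. The thermocycle went on for some days after eclosion, and the adults were then kept in darkness at a constant 25 °C. Each sample pooled 100 to 200 heads of unstated sex. Heads were collected every 4 h, from 2 h (AA2) to 46 h (AA46) after the thermocycle had ended, on 12 arrays in all. A time of day of 2, 6 or 10 h falls in the subjective cryophase (the hours that had been cold) and one of 14, 18 or 22 h in the subjective thermophase (the hours that had been warm), and each of the 6 times of day had 1 array from day 1 and 1 from day 2. The labels name no separate rearings for the days, so p-values measure only the spread between these arrays, and in whole heads fewer cells of a type cannot be told apart from less RNA per cell. Values are log2 expression levels made by robust multi-array averaging (RMA), with array medians between 5.64 and 5.67.

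The arrays were alike except AA46, whose 18S rRNA control probe sets averaged 4.09 log2 against 2.78 to 2.99 log2 on the other arrays, and whose mean correlation with the others was 0.992 against 0.996 or more. Of the photoreceptor markers, 6 of 12 genes had a probe set and all 6 passed the filter on low values (more than 50% of values above the 20th percentile of their array), with mean levels of 10.8 to 13.1 log2. The neuronal markers elav and Syn and the testis marker dj were below that filter. The neuronal markers nSyb (mean 7.16 log2) and brp (5.71) and the testis markers bol (8.15) and Mst87F (6.03) passed it. So did the Malpighian tubule and gut markers betaTry (7.15), Jon65Aiv (6.65) and alphaTry (5.44).

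On probe set 151510_s_at the bw transcript was low in the subjective cryophase and high in the subjective thermophase of both days. On day 1 its level was 7.48 log2 at AA2, 7.28 at AA6, 7.44 at AA10, 7.54 at AA14, 7.78 at AA18 and 7.76 at AA22. On day 2 it was 7.51 log2 at AA26, 7.33 at AA30, 7.38 at AA34, 7.71 at AA38, 7.76 at AA42 and 7.70 at AA46. The lowest array was the 6 h collection and the highest the 18 h collection on both days, and the whole range, from AA6 to AA18, was 1.41-fold.

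**Figure D1:**
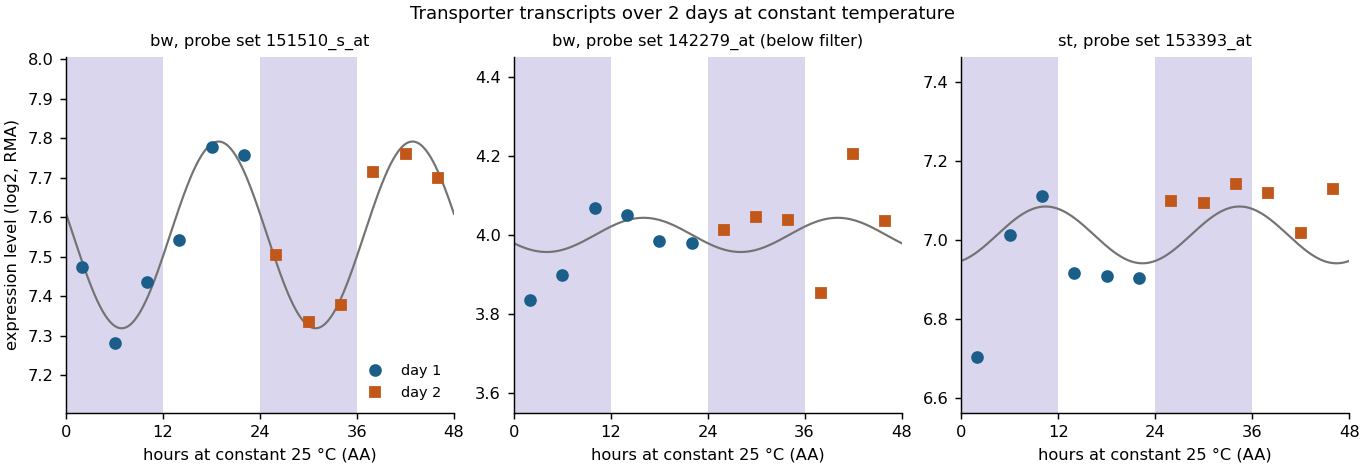
Expression level (log2, RMA) of the bw and st probe sets against hours at constant 25 °C, with day 1 as circles, day 2 as squares, the hours of the former cold phase shaded and the fitted 24-h cosine as a line; each panel spans the same number of log2 units. The bw probe set 151510_s_at ran from 7.28 at AA6 to 7.78 at AA18 and repeated this course on day 2, whereas st lay lower on day 1 (6.70 to 7.11) than on day 2 (7.02 to 7.14) at every time of day.

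The 6 cryophase arrays of bw averaged 7.40 ± 0.0855 log2 (SD, n = 6; lowest 7.28, highest 7.51) and the 6 thermophase arrays 7.71 ± 0.0865 log2 (SD, n = 6; lowest 7.54, highest 7.78). No cryophase array reached a thermophase array, and the gap between the groups was 0.04 log2. The same separation, with the thermophase higher, was seen in 0.26% of the 11156 probe sets that passed the filter (the reverse in 0.323%), and it belongs to the profile by which bw was known. A cosine of 24 h fitted to the 12 arrays had a peak-to-trough difference of 0.47 ± 0.04 log2 (SE), or 1.39-fold, and a peak at 18.9 ± 0.325 h (SE). It took up a share of 0.939 of the variance (the score F24), the highest of the tested probe sets.

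Ordered by the mean of both days, bw stood highest at 18 h (7.77 log2), then at 22 h (7.73), 14 h (7.63), 2 h (7.49), 10 h (7.41) and 6 h (7.31). The SD between the 2 arrays of a time of day, pooled over the times, was 0.06 log2. The means at 18 and 22 h differed by less than this SD, and the arrays of 22 and 14 h overlapped, since AA14 (7.54) lay well below AA38 (7.71). The other neighbours in this order were more than 1 SD apart and their arrays did not overlap.

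The course of bw was alike on the 2 days. Fitted separately, the peak-to-trough difference was 0.48 ± 0.07 log2 (SE, n = 6 arrays) on day 1 and 0.47 ± 0.06 log2 on day 2, and the peak fell at 19.2 ± 0.539 h and at 18.5 ± 0.482 h. The correlation of the 2 days over the 6 times of day was r = 0.895, which describes the profile for which bw was known and tests nothing.

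The mean level of bw differed little between days, at 7.55 ± 0.19 log2 on day 1 and 7.57 ± 0.19 log2 on day 2 (SD, n = 6 each). It was higher on day 2 at 3 of 6 times of day, and the difference of 0.02 log2 (1.01-fold) had a 95% interval of -0.08 to 0.12 log2 (limma adjusted p = 0.900, exact two-sided permutation p = 0.6875 over the 64 swaps of days within times of day). Since bw was known for its 24-h profile, and a high F24 leaves little variance between days, a small difference was favoured by the choice of bw.

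The other bw probe set, 142279_at, stayed near the lower end of the arrays' range. Its levels ran from 3.84 log2 at AA2 to 4.20 log2 at AA42, with a mean of 4.00, and only 1 of its 12 values was above its array's cut-off, so it did not pass the filter. The arrays of the cryophase (3.84 to 4.07 log2) and the thermophase (3.85 to 4.20 log2) overlapped. Its fitted 24-h difference was 1.06-fold with an F24 of 0.0988, which was 0.368 without AA38, and on day 1 alone the F24 was 0.772 and on day 2 0.133. It was 0.06 log2 higher on day 2 (exact two-sided permutation p = 0.375). Over the 12 arrays it correlated with the first bw probe set at r = 0.15 (Spearman's rho -0.01). The profile of bw thus rests on 1 probe set, and the suffix of its name (_s_at) marks probes that can match more than 1 transcript.

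In the RefSeq gene table (Release 6 plus ISO1 MT) bw overlaps the gene mi, whose own probe set averaged 2.91 log2, was above the cut-off on no array and correlated with 151510_s_at at r = -0.06 over 12 arrays.

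The st transcript lay higher on day 2 than on day 1 at all 6 times of day. On day 1 its level was 6.70 log2 at AA2, 7.01 at AA6, 7.11 at AA10, 6.92 at AA14, 6.91 at AA18 and 6.90 at AA22. On day 2 it was 7.10 log2 at AA26, 7.09 at AA30, 7.14 at AA34, 7.12 at AA38, 7.02 at AA42 and 7.13 at AA46. The day 2 arrays lay close together, those of day 1 were spread more widely with AA2 the lowest, and the groups overlapped through AA10.

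The means of st were 6.93 ± 0.14 log2 on day 1 and 7.10 ± 0.04 log2 on day 2 (SD, n = 6 each), a difference of 0.17 log2 or 1.13-fold with a 95% interval of 1.04-fold to 1.22-fold. The differences at single times of day ran from 0.03 log2 at 10 h to 0.39 log2 at 2 h. The exact two-sided permutation test gave p = 0.03125, the smallest that the 64 swaps allow. By limma the unadjusted p was 0.00715 and the adjusted p, over the 11156 tested probe sets, was 0.143, so st was not called. A limma p as low or lower was found for 4.97% of tested probe sets, and 5.38% were higher on day 2 at all 6 times of day (4.4% were lower at all 6). Without AA2, which also removes its partner AA26 from the comparison, the difference was 0.13 log2 (limma adjusted p = 0.401).

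**Figure D2:**
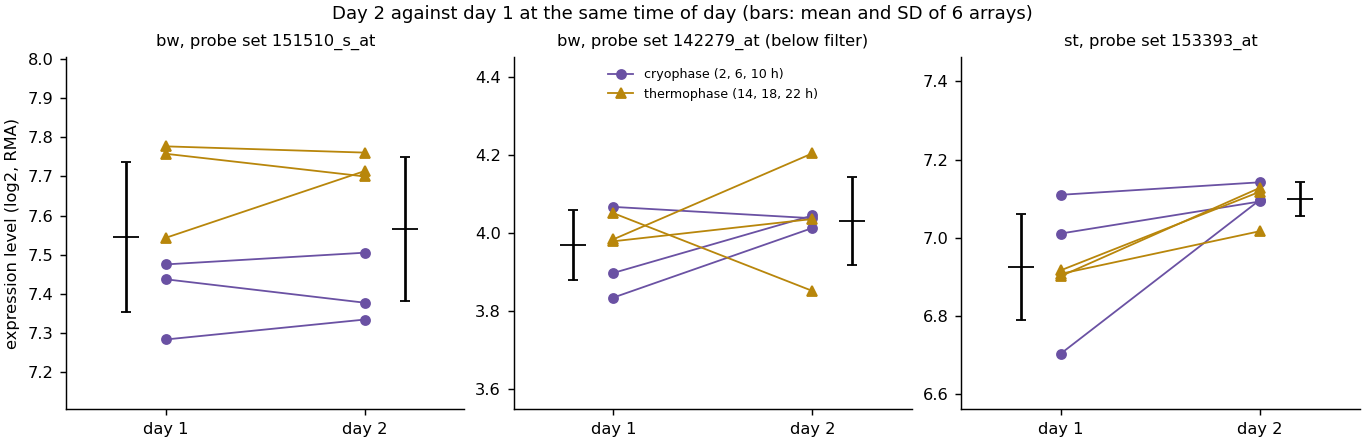
Expression level (log2, RMA) on day 1 and day 2 for the bw and st probe sets, with a line joining the arrays of the same time of day (circles, subjective cryophase; triangles, subjective thermophase) and black bars for the mean and SD of 6 arrays. All 6 lines of st run upward, by 0.03 to 0.39 log2, as do 3 of 6 lines of bw probe set 151510_s_at.

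Of the 2 transporter probe sets tested, 0 were called between days by limma and 1 (st) had an unadjusted p under 0.05, against 1.61% called and 14.8% with such a p among all tested probe sets. The day difference of st exceeded that of bw by 0.15 log2, at 6 of 6 times of day, which is given as a description only. This contrast largely repeats the day difference of st, since bw was chosen for a profile that leaves little difference between days.

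Photoreceptor transcripts moved in the same direction as st. Of the 6 photoreceptor markers tested, 3 rose on day 2, against 0.412% of all tested probe sets, namely trp (0.23 log2, limma adjusted p = 0.0238) and trpl (0.25 log2, adjusted p = 0.0109), which encode light-activated cation channels, and inaD (0.23 log2, adjusted p = 0.0342), which encodes their scaffold protein. Arr2, Arr1 and chp were 0.09, 0.04 and 0.025 log2 higher on day 2, at 6, 4 and 3 of 6 times of day, and were not called. The mean of the 6 markers was 11.45 to 11.59 log2 on the arrays of day 1 and 11.58 to 11.73 log2 on those of day 2. Among 6 fat body markers, fit (a female-biased fat body gene) and Yp2 (a yolk protein) fell, by 2.51 and 0.23 log2. Of all tested probe sets 1.2% were called lower. The yolk protein genes Yp1 and Yp3 were 0.11 and 0.20 log2 lower on day 2, higher at 0 of 6 times of day, and not called. Lsp2 and Fbp1 were 0.06 and 0.09 log2 higher on day 2 and not called. The mean of the 6 was 11.72 to 12.03 log2 on day 1 and 11.22 to 11.67 log2 on day 2, and without fit the mean of the other 5 was 12.19 to 12.33 and 12.11 to 12.29 log2. None of the markers of glia (6), neurons (2), Malpighian tubules and gut (3) or testis (2) that were tested was called. The part of these cell types in the difference of st was not tested. For the daily course of bw, the photoreceptor mean was 11.48 log2 in the cryophase and 11.55 log2 in the thermophase of day 1, and 11.64 and 11.69 log2 on day 2 (n = 3 arrays each), and the arrays of the phases overlapped on both days (11.45 to 11.55 and 11.50 to 11.59 log2, then 11.58 to 11.73 and 11.68 to 11.70 log2). Of the 6 markers, 5 had a fitted peak in the thermophase, against 55.6% of all tested probe sets. The largest fitted difference was that of trp, 1.26-fold with a peak at 18.5 h (local permutation p = 0.0627, the share of 100000 random time orders with as high an F24), and chp, a cell surface protein gene of photoreceptors, had 1.19-fold with a peak at 13.1 h (local permutation p = 0.00495). The part of photoreceptor RNA in the course of bw was not tested.

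Over time of day, st was highest at 10 h (7.13 log2), followed by 6 h (7.05), 14 h (7.02), 22 h (7.02), 18 h (6.96) and 2 h (6.90). The SD between the arrays of a time of day was 0.15 log2, and every neighbouring step in this order was smaller than that. The cryophase arrays averaged 7.03 ± 0.16 log2 (6.70 to 7.14) and the thermophase arrays 6.998 ± 0.11 log2 (6.90 to 7.13), and they overlapped. The fitted difference was 0.14 ± 0.11 log2 (SE), or 1.10-fold, with a peak at 10.4 ± 2.90 h and an F24 of 0.162, which was 0.524 after a linear trend over the 12 arrays was removed. The correlation between days over the 6 times of day was r = 0.282. Over the 12 arrays st and bw correlated at r = -0.16 (rho -0.24).

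In the same gene table st lies within the longer gene CG43373, and the strand is not given there. The 2 probe sets of CG43373 averaged 5.48 and 6.07 log2, correlated with st at r = 0.27 and 0.47 over 12 arrays, and were 0.03 and 0.09 log2 higher on day 2 (limma adjusted p = 0.819 and 0.392).

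The cn transcript, which the strain also carries in mutant form, ran from 4.55 to 4.98 log2 with a mean of 4.75. Its fitted peak of 18.1 ± 1.62 h lay near that of bw, with a 1.17-fold difference and an F24 of 0.382 that did not pass (local permutation p = 0.119). The correlation of its 2 days was r = 0.06, its correlation with bw over 12 arrays 0.45 and that with st -0.54. On day 2 it was 0.10 log2 lower (limma adjusted p = 0.486) and higher at 2 of 6 times of day.

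None of the tested genes of pigment synthesis or granule formation had a local permutation p under 0.05 for the 24-h score. Among 12 tested enzymes of pteridine and ommochrome synthesis (of 14 listed), 0 had a local permutation p under 0.05, against 6.11% of all tested probe sets, and 5 of 12 peaked in the thermophase, against 55.6% of all. The median F24 was 0.220, against 0.135 over all tested probe sets. After adjustment over all probe sets, 0 of the 11156 passed by permutation and 33 by a limma cosine fit, of which 0 were among the 41 genes of the pathway lists.

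Between days, 1 of the 12 enzymes fell and 0 rose, against 1.2% falling and 0.412% rising among all tested probe sets. The enzyme that fell was se (sepia), which acts in the drosopterin branch that Brown serves. Its day 1 arrays lay between 7.56 and 7.82 log2 and its day 2 arrays between 6.83 and 7.33 log2, with no overlap. The mean fell by 0.57 log2, at 6 of 6 times of day (limma adjusted p = 0.000937), and it was called whichever array was left out. The median day difference of the enzymes was -0.08 log2, against 0.00 log2 over all tested probe sets, and 3 of 12 were higher on day 2.

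Among 17 tested genes of pigment granule formation (of 19 listed), which sort proteins to these lysosome-related organelles, 0 had a local permutation p under 0.05, against 6.11% of all tested probe sets, and 0 were called between days by limma, against 1.61%. The unadjusted day p was under 0.05 for 2 of the 17, or and Blos1, against 14.8% of all. Their median F24 was 0.0851, against 0.135 over all tested probe sets, and their median day difference 0.01 log2. The 2 named by rule for their high means were Rab32, the GTPase of pigment granule traffic, at 9.67 log2 (1.05-fold fitted difference, 0.06 log2 higher on day 2) and p (pink), a subunit of a granule trafficking complex, at 7.75 log2 (1.04-fold, 0.02 log2 higher).

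**Figure D3:**
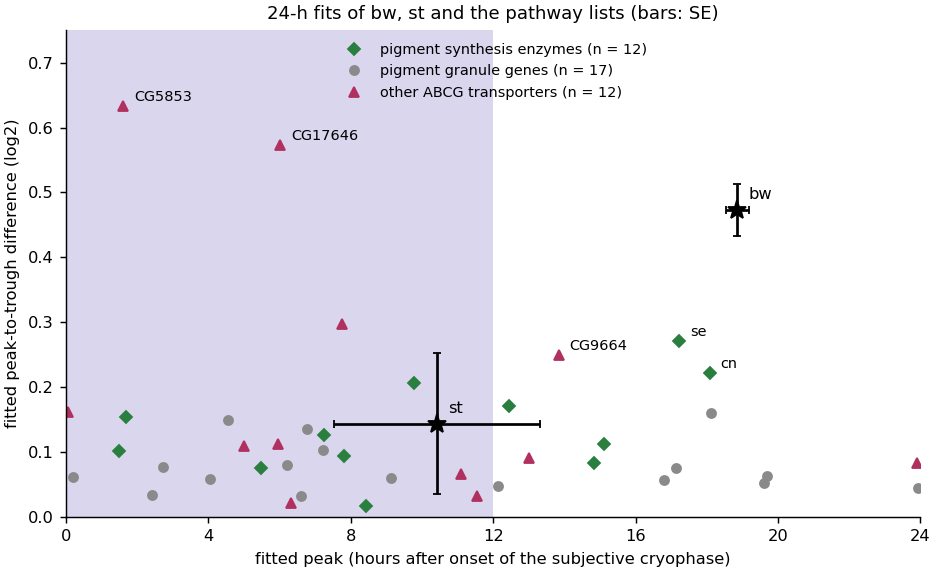
Peak-to-trough difference of the fitted 24-h cosine (log2) against its peak time (h, 0 being the start of the subjective cryophase, which is shaded) for bw, st, 12 pigment synthesis enzymes, 17 pigment granule genes and 12 other ABCG transporters, with SE bars for bw and st. The 2 ABCG genes with larger differences than bw, CG5853 and CG17646, peaked in the cryophase, at 1.60 h and 6.02 h, and bw at 18.9 h.

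The remaining transporters of the ABCG subfamily were all measured, 12 of 12. For 2 of the 12 the local permutation p was under 0.05, against 6.11% of all tested probe sets, and both peaked in the cryophase, where bw was low. With the day means removed (the day as a replicate block), CG9664 also had a local permutation p under 0.05 (0.00295, against 0.135 in the main comparison). Its fitted peak, at 13.8 h, lay in the thermophase. CG5853 ran from 6.90 to 7.78 log2, with a fitted difference of 1.55-fold, a peak at 1.60 ± 0.814 h and a local permutation p of 0.00629 (adjusted p = 0.501). CG17646 ran from 7.50 to 8.50 log2, with a 1.49-fold difference, a peak at 6.02 ± 1.18 h and a local permutation p of 0.0142 (adjusted p = 0.616), which rose to 0.0589 without AA6. A second probe set of CG17646 had a peak at 6.27 h but a difference of only 1.11-fold (local permutation p = 0.130). The median F24 of the 12 was 0.169, against 0.135 over all tested probe sets, and 3 of them peaked in the thermophase, against 55.6% of all.

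Between days, 1 of the 12 rose and 0 fell, against 0.412% rising and 1.2% falling among all tested probe sets. The one that rose was CG9664, from 7.11 to 7.36 log2 on day 1 to 7.33 to 7.66 log2 on day 2, by 0.21 log2 and at 6 of 6 times of day (limma adjusted p = 0.0429). The call was lost without any one array of 2, 6, 10, 14 or 18 h, with an adjusted p of up to 0.146 (an array of 2 h left out). The median day difference of the 12 was -0.01 log2.

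**Figure D4:**
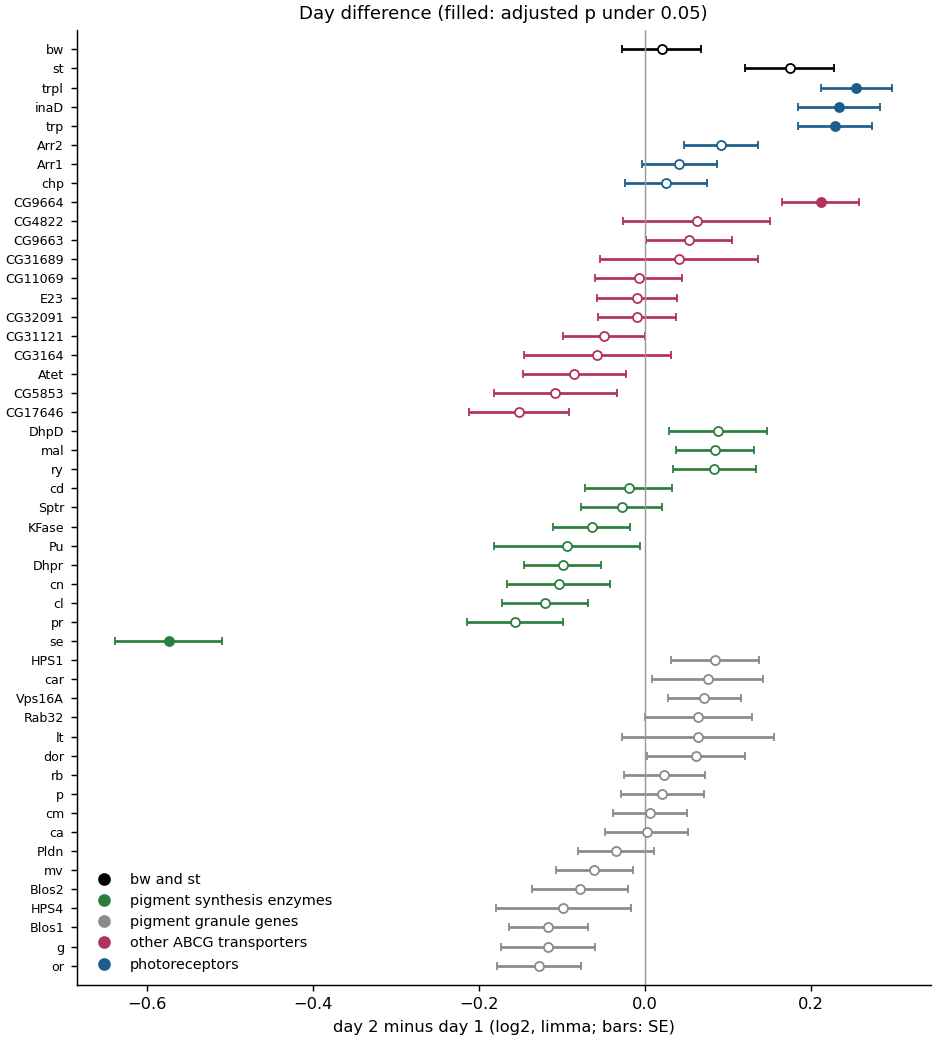
Day 2 minus day 1 (log2, limma estimate with SE bars) for bw and st, 6 photoreceptor markers, 12 other ABCG transporters, 12 pigment synthesis enzymes and 17 pigment granule genes, with filled symbols for an adjusted p under 0.05. The value for st (0.17) lay among those of the photoreceptor markers (0.03 to 0.25), and se stood apart at -0.57.

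The genes whose profile over the 12 arrays was most like that of bw, by Pearson's r among 9965 tested probe sets of other single genes, were CG13255 (r = 0.916), CG7227 (0.895), Obp56a (0.891), Nepl6 (0.885) and Cyp12d1-d (0.871). Obp56a encodes an odorant-binding protein, Nepl6 a neprilysin-like protein and Cyp12d1-d a cytochrome P450 that has a near-identical neighbour, Cyp12d1-p, so its probe set may report both. Their fitted peaks lay between 18.0 h (CG13255) and 19.9 h (Cyp12d1-d), and their fitted differences between 1.18-fold (CG13255) and 1.80-fold (Obp56a). None of the 5 was called between days (limma adjusted p of 0.321 to 0.825), against 1.61% of all tested probe sets. Without AA46 the 5 correlations with bw were 0.888 to 0.916.

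The profiles most like that of st were those of Skp2 (r = 0.919), an F-box protein gene, CG7084 (0.887), Xxylt (0.878), trpl (0.876) and CG2681 (0.868). All 5 were higher on day 2, by 0.12 log2 (CG7084) to 0.25 log2 (trpl), as their likeness to st implies. Of these only trpl was called (limma adjusted p = 0.0109, against 0.107 to 0.295 for the other 4), where 1.61% of all tested probe sets were called. These correlations describe 12 arrays that share one normalization, and the 5 genes of each set were picked for them. The peaks and day differences of both sets follow in part from that choice and test nothing.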

How the data were processed

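Transcripts were measured in heads of cn bw flies on 12 Affymetrix Drosophila Genome 1 arrays, 1 per collection. The authors deposited log2 levels from RMA (background correction, quantile normalization and median polish), with the version not given in the sources used. Such normalization hides a change shared by most transcripts, and the number of arrays limits the precision. Arrays were grouped by the collection time in their titles. Without replicate numbers in the labels, the day of collection stood in for the replicate.

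Of 14010 probe sets, 44 were controls, 12443 had 1 gene symbol, 327 several and 1196 none, by the platform annotation updated through gene identifiers against the RefSeq table of Release 6 plus ISO1 MT. A probe set was tested if over 50% of its values exceeded the 20th percentile of their array, which kept 11156. No coordinates or sequences are given.

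Day 2 was compared with day 1 in limma 3.58.1 (R 4.3.3) with time of day as a block and Benjamini-Hochberg adjustment over all tested probe sets, and for single values by the exact test over the 64 swaps of days within times of day. F24 is the share of variance in a 24-h cosine, and its local p came from 100000 random time orders (numpy 2.4.6, Python 3.11.15). In the lists, the probe set with the highest mean stood for its gene. A call means an adjusted p under 0.05.

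The genes, 3 pathway lists and 6 marker lists were chosen with earlier results of these data known. Named by rule were all bw, w and st probe sets, cn, from each pathway list the genes with an adjusted day p or a local p under 0.05 or else the 2 with the highest means, and the 5 genes most like bw and st. Marker genes, and the granule genes or and Blos1, were named after their values were seen. The probe set 142279_at was described and kept out of the adjustment. Alternatives were other filters, scalings, weights, periods, blocks and leaving out each array. Both procedures were tested on simulated data. For the day comparison these data held independent noise and no array effect, so they do not cover an array such as AA46.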

Additional observations from a re-analysis of the deposited data

Results flagged for a closer look

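In 20 groups of 6 arrays (each day, the cryophase and the thermophase, for the bw, st and cn probe sets and the 18S rRNA controls), 4 held an array far from the rest, with a gap to its nearest neighbour that exceeded the critical share of the group's range in Dixon's test. Chance gives such a gap in about 1 group in 20. Among the thermophase arrays of bw probe set 151510_s_at, AA14 was low at 7.54 log2, with the next at 7.70 and the highest at 7.78. Among the cryophase arrays of st, AA2 was low at 6.70 log2, with the next at 7.01 and the highest at 7.14. The mean of the 18S rRNA controls was 4.09 log2 at AA46, against 2.99 log2 for the next highest, both among the arrays of day 2 and among those of the thermophase. On that array bw (7.70 log2) and st (7.13 log2) lay within the range of their other arrays.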

How the results depend on the processing

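With 1 array per time and day, small differences could not be told from the spread. The day differences of bw and st stayed uncalled under all 9 other settings and with any array left out. For st the limma adjusted p ran from 0.0874 (array weights) to 0.401 (an array of 2 h left out), with a difference of 0.13 to 0.20 log2 over the arrays left out, and for bw the difference ran from -0.01 to 0.04 log2. The number of probe sets called between days was 180, and it was 297 with a mean-variance trend and robust fit, 450 with array weights, which gave both arrays of 22 h a weight of 0.339, and 379 without both arrays of 22 h. With time of day as a block, the arrays of a time of day receive the same weight, so this weight does not tell AA22 from AA46. With single arrays left out it was 80 to 379, lowest without either array of 10 h and highest without AA22 or AA46, and the share of higher calls, 25.6% in the main comparison, was 40.4% on the linear scale, 35.7% with the trend and robust fit, 42.7% with weights and 44.9% without one or both arrays of 22 h, and it was 11% to 19.1% without any one of the other 10 arrays, lowest without an array of 6 h. The peak-to-trough difference of bw probe set 151510_s_at was 0.39 log2 (F24 0.783) after a linear trend was removed, and 0.45 to 0.49 log2 with single arrays left out, with a peak between 18.6 and 19.2 h. With the day as a replicate block its difference was again 0.47 log2 (F24 0.942), the F24 of st was 0.306 (0.162 in the main comparison, 0.524 with a linear trend removed, and 0.0989 without AA34 to 0.356 without AA46), and the count of enzymes with a local permutation p under 0.05 went from 0 to 1 (se, 0.0376). The same block took the count of other ABCG transporters with a local permutation p under 0.05 from 2 to 3 (CG9664 added, 0.00295). Leaving out single arrays gave 0 to 1 such genes among the enzymes (cn without AA2, Dhpr without AA22), 0 to 1 among the granule genes (dor without AA14, ca without AA42) and 1 to 3 among the other ABCG transporters. The planned correlation between w and st was not run, since no probe set was annotated to w alone.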
